A study of Caenorhabditis elegans with 21 samples.

Results

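The histone variant genes of Caenorhabditis elegans whose mRNAs end in a poly(A) tail were followed through mRNA libraries of 1-cell embryos, adult worms and sperm. Small RNA libraries of 1-cell embryos, sperm and oocytes were also used. The 9 genes were taken by their names in the mRNA table: his-35 and htz-1 of the H2A class, his-69, his-70, his-71, his-72, his-73 and his-74 of the H3.3 class, and the linker histone gene his-24. Rows for 8 of them were found among the 21042 rows of the table. The gene his-73 is not analysed here. No sequence is shown, and no genome position is given because the genome build of the files is not given in the sources used here.

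Most histone mRNAs of animals end in a stem-loop in place of a poly(A) tail, and they are made mainly while DNA is copied. Replacement variants such as H3.3 and H2A.Z come from separate genes with polyadenylated mRNAs, and they can be placed in chromatin at any time of the cell cycle. A new zygote depends on histones and histone mRNAs stored in the oocyte, and its paternal chromatin, which arrives packed with sperm proteins, is rebuilt with them. A poly(A)-selected library keeps mRNAs with a tail, whereas a library depleted of ribosomal RNA (RiboMinus) keeps mRNAs with and without one.

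The study crossed mothers labelled fem-1(hc17ts)/TX189(OMA-1::GFP) with fathers of the Hawaiian strain CB4856 and asked which RNAs the zygote receives from its father. The embryos of the mRNA libraries were hybrids sorted by fluorescence (eFACS), and their mRNA was sequenced after poly(A) selection (3 libraries) or RiboMinus depletion (3 libraries). The small RNA libraries used here came from hybrid embryos, TX189(OMA-1::GFP) embryos, fog-2(q71) sperm and N2 oocytes. Poly(A) libraries of whole adult worms came from CB4856 (3 libraries) and from the maternal strain (3 libraries), whose titles give an N2 background. The sperm mRNA libraries, 1 each and poly(A)-selected, came from CB4856 (low purity, and high purity with pronase treatment) and from fog-2(q71). All samples carry the label 24 °C. The OMA-1::GFP transgene marks oocytes and early embryos, fem-1 is needed for sperm production in hermaphrodites, and fog-2 mutants consist of males and females. The sex of the CB4856 worms is not in the labels, and the worm libraries are of whole worms, so that fewer cells of a type and less RNA per cell cannot be told apart.

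Depth was 106.29 to 136.11 M mapped reads (1 M is 1000000 reads) in poly(A) embryos, 4.56 to 13.88 M in RiboMinus embryos, 34.57 to 156.1 M in CB4856 worms and 31.7 to 135.78 M in maternal-strain worms. Replicates 1 and 2 of each group differed little more than read sampling gives, with a mean dispersion of 1.93 to 2.14, against 37.49 to 1506.32 between replicates 1 and 3. A dispersion of 2 is what sampling gives where each fragment is counted as 2 reads, although the labels do not state such pairing. Replicates 1 and 2 were therefore counted as 1 sample, so that n = 2 samples a group, and means ± SD below are over these samples. The median dispersion between replicates 1 and 3 was 58.97 in poly(A) embryos, 12.73 in RiboMinus embryos and 1.13 in both worm groups. Between replicates 1 and 2 the median was 0.87 to 0.93. For the median gene the 2 worm samples of a group thus differed little, so their spread may not be that of separate cultures. Marker levels were set beside the labels. The 6 oocyte and early embryo markers summed to 13810 to 14630 RPKM (reads per kilobase of gene per M mapped reads) in poly(A) embryos. In RiboMinus embryos they summed to 7680 to 9425 RPKM, and in maternal-strain worms to 4882 to 4968 RPKM. Among them mex-5 went the other way, averaging 568 RPKM in poly(A) embryos and 1418 RPKM in maternal-strain worms. Averages of oma-1 (238 and 195 RPKM) and glp-1 (105 and 91.1 RPKM) were close. The 4 neuron markers summed to 415.2 to 473.7 RPKM in poly(A) embryos, 298.2 to 348.4 RPKM in sperm and 133.9 to 155.0 RPKM in whole worms. In poly(A) embryos and maternal-strain worms snb-1 averaged 323 and 83.3 RPKM and unc-119 118 and 22.4 RPKM. The other neuron markers went the other way, egl-21 at 2.84 and 28.8 RPKM and rab-3 at 0.426 and 1.13 RPKM. The 7 sperm markers summed to 0.2439 to 1.652 RPKM in poly(A) embryos, 0 to 3.775 RPKM in RiboMinus embryos, 6863 to 21290 RPKM in the sperm libraries, 1984 to 2014 RPKM in CB4856 worms and 14.41 to 15.35 RPKM in maternal-strain worms. Markers of other tissues were also present in the sperm libraries. In high-purity, low-purity and fog-2 sperm, 5 gut and yolk markers summed to 803.6, 2771 and 1763 RPKM, 4 cuticle markers to 1794, 2671 and 1053 RPKM, 4 body wall muscle markers to 1369, 878.8 and 821.4 RPKM, and the oocyte and early embryo markers to 1338, 1151 and 983.9 RPKM.

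Set beside the replication-dependent histones, the 8 variants had the higher summed level in poly(A) libraries and a far lower one in RiboMinus embryos. Their summed level was 4713, 4721 and 6060 RPKM in the 3 poly(A) embryo libraries and 1391, 1467 and 2970 RPKM in the 3 RiboMinus libraries. The 62 replication-dependent histone genes in the table summed to 652.9, 652.7 and 671.0 RPKM in poly(A) embryos and to 24240, 24710 and 47510 RPKM in RiboMinus embryos. Of these 2 classes together the variants held 87.83% to 90.03% of the RPKM in poly(A) embryos and 5.43% to 5.88% in RiboMinus embryos, with no overlap between the libraries of the 2 groups. In whole worms, all poly(A)-selected, the share was 85.04% to 86.03% in CB4856 and 85.76% to 86.01% in the maternal strain. Neither sum holds the 8 other linker histone genes and the 2 centromeric H3 genes. With these 10 genes added to the total, the variants held 55.87% to 56.51% in poly(A) embryos, 5.15% to 5.72% in RiboMinus embryos, 41.40% to 41.69% in CB4856 worms and 43.36% to 44.13% in maternal-strain worms. Selection for a poly(A) tail is itself the difference between the embryo groups, and the share is given as a description.

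**Figure D1:**
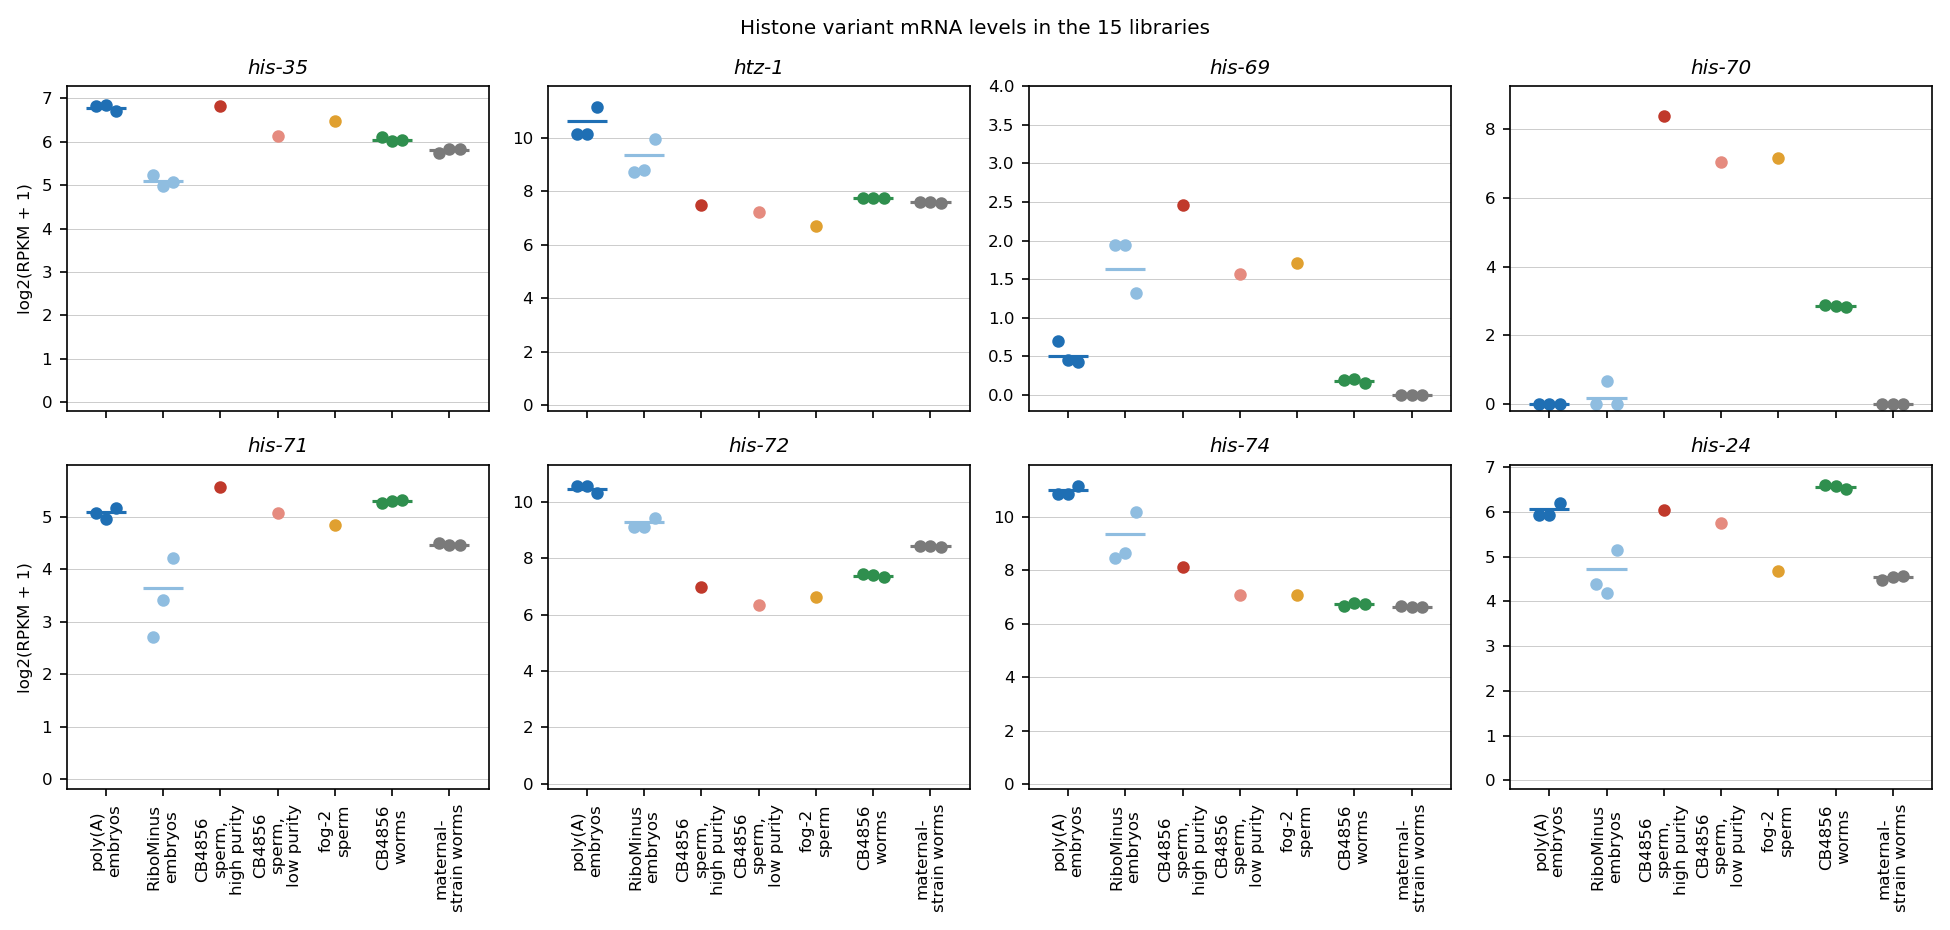
Levels of the 8 histone variant mRNAs, as log2(RPKM + 1), in the 15 mRNA libraries, with 1 panel a gene and its own vertical axis starting at or just below 0. Points are libraries and bars are means over 2 samples a group. The his-70 points stand high in sperm and are at 0 in poly(A) embryos, while htz-1, his-72 and his-74 are highest in poly(A) embryos.

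Poly(A) embryos were first set against RiboMinus embryos, which compares the level of each mRNA after the 2 ways of RNA selection. RPKM is relative to the mapped reads of a library, so a difference is not a retained amount. Of the 8 genes, his-35, his-71, his-72 and his-24 were called higher in poly(A) embryos and his-69 lower, and his-74, htz-1 and his-70 were not called. Calls required an adjusted p below 0.05 together with a log2 difference of at least 1 in size, on the log2(RPKM + 1) scale (limma across all genes, Benjamini-Hochberg adjustment, two-sided). Of the 11041 genes tested, 20.6% were called, of which 1328 were higher and 950 lower (8.60%), and the median log2 difference of all genes was 0.06. All 8 genes passed the filter of at least 1 RPKM in 3 of the 12 replicated libraries, but his-69 passed it through the RiboMinus libraries alone and his-70 through the CB4856 worms alone.

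Among the H2A genes, his-35 (C50F4.13, WBGene00001909) encodes a form of core histone H2A. It stood at 112.5, 114.1 and 103.7 RPKM in poly(A) embryos and at 36.85, 30.67 and 32.81 RPKM in RiboMinus embryos. All poly(A) libraries were high and all RiboMinus libraries low, with no overlap. The log2 difference was 1.67 ± 0.15 (SE; limma adjusted p = 0.00203), a ratio of mean RPKM of 3.26, and it was called under 13 of 14 alternatives. The gene htz-1 (R08C7.3, WBGene00019947) encodes H2A.Z, which marks promoters and is needed for embryonic development. Its levels were 1146, 1137 and 2283 RPKM in poly(A) embryos and 420.5, 445.2 and 1011 RPKM in RiboMinus embryos. Replicate 3 was well above the other libraries in both groups, at 2.00 times the other sample in poly(A) embryos and 2.34 times in RiboMinus embryos. The groups did not overlap, and the log2 difference of 1.29 ± 0.48 missed the threshold (adjusted p = 0.0932, 95% interval 0.12 to 2.45). It was called without RiboMinus replicate 3, at 1.90 (adjusted p = 0.0302).

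The H3.3 class differed most among itself. H3.3 replaces H3 in chromatin outside DNA replication and is carried by both gametes. The gene his-72 (Y49E10.6, WBGene00001946), one of the main H3.3 genes, stood at 1521, 1524 and 1286 RPKM in poly(A) embryos and at 557.8, 559.7 and 701.0 RPKM in RiboMinus embryos. The groups were well apart, and the log2 difference was 1.16 ± 0.18 (adjusted p = 0.00867). Its call was lost after quantile normalization (0.61, adjusted p = 0.0874) and without RiboMinus replicates 1 and 2 (1.00, just under the fold limit). The gene his-71 (F45E1.6, WBGene00001945), the other main H3.3 gene, was far lower, at 32.76, 29.96 and 34.86 RPKM in poly(A) embryos and 5.542, 9.654 and 17.55 RPKM in RiboMinus embryos. The RiboMinus libraries differed widely and rested on 15, 26 and 144 reads, yet none reached a poly(A) library. The log2 difference of 1.43 ± 0.35 (adjusted p = 0.0308) was lost without poly(A) replicate 3 (adjusted p = 0.0762) and without poly(A) replicates 1 and 2 (adjusted p = 0.0721). Without RiboMinus replicates 1 and 2 it was 0.88, under the fold limit.

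The gene his-74 (W05B10.1, WBGene00012276), another H3.3-type gene, was the most abundant of the 8 in poly(A) embryos. It had 1840, 1855 and 2280 RPKM in poly(A) embryos and 348.0, 400.8 and 1171 RPKM in RiboMinus embryos. RiboMinus replicate 3 held 3.13 times the level of the other RiboMinus sample, the largest such gap of the 7 genes with more than 1 read in both samples, and still lay below every poly(A) library. The log2 difference of 1.63 ± 0.50 was as large as that of his-35 but was not called (adjusted p = 0.0568). Without RiboMinus replicate 3 it was 2.45 (adjusted p = 0.00251).

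The remaining H3.3-type genes, his-69 (E03A3.3, WBGene00001943) and his-70 (E03A3.4, WBGene00001944), are neighbours with no protein-coding gene between them in the RefSeq annotation of WBcel235. Levels of his-69 were 0.630, 0.368 and 0.344 RPKM in poly(A) embryos, from 27, 15 and 18 reads, and 2.84, 2.86 and 1.50 RPKM in RiboMinus embryos, from 5, 5 and 8 reads. It was the only one of the 8 genes called lower, with a log2 difference of -1.13 ± 0.19 (adjusted p = 0.0104). Since it entered the test only because of its RiboMinus values, its call is a description. The call was also lost with a pseudocount of 5 (-0.40), with medians centred (-0.98) and without RiboMinus replicates 1 and 2 (-0.82). For his-70, no read fell in any of the poly(A) embryo libraries and 1 read in RiboMinus embryos, in replicate 2 (0.576 RPKM). At the summed depth of 354.0 M reads, 0 reads allow up to 0.0222 RPKM in poly(A) embryos (3 reads), so the mRNA was not detectable at this depth.

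The linker histone gene his-24 (M163.3, WBGene00001898) encodes H1.1, which binds DNA between nucleosomes and acts in germline chromatin. Levels were 59.79, 60.15 and 72.58 RPKM in poly(A) embryos and 19.83, 17.15 and 34.53 RPKM in RiboMinus embryos. The groups did not overlap, and the log2 difference was 1.35 ± 0.30 (adjusted p = 0.0226). It was not called without poly(A) replicate 3 (adjusted p = 0.0551) or without RiboMinus replicates 1 and 2 (0.91).

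These calls rested on 1 fit of all 4 groups that shares the spread of the worm libraries. The median dispersion between replicates 1 and 3 was 1.13 in both worm groups, beside 58.97 in poly(A) and 12.73 in RiboMinus embryos. A limma fit of the embryo libraries alone called 0 genes of any kind, with an adjusted p = 0.154 for his-35. At an unadjusted p under 0.05 that fit passed 3 of the 8 genes as higher and 1 as lower, and 1501 and 925 of all genes. In the fit of all groups the same limit passed 6 of the 8 as higher and 1 as lower, all except his-70, beside 2804 higher and 1793 lower of all genes (41.6%).

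Replication-dependent histone mRNAs end, as a class, in a stem-loop, although the ends of single mRNAs were not examined here. The genes, taken by name as his-1 to his-68 without his-24 and his-35, mostly differed in the other direction. Of 57 that passed the filter, 55 were called lower in poly(A) embryos and 1 higher, with a median log2 difference of -3.68. Since 34 of the 57 passed the filter through RiboMinus libraries alone, their calls and the median are a description. The core histone gene his-62 averaged 60.6 ± 12.2 RPKM in poly(A) embryos and 11682.5 ± 3854 RPKM in RiboMinus embryos (n = 2 samples). The largest difference, -9.29 (adjusted p = 0.000516), was that of his-1, which averaged 1.79 ± 1.80 RPKM in poly(A) embryos and 1619 ± 629 RPKM in RiboMinus embryos. The 2 genes of the 57 not called lower, picked out after their values were seen, were his-41 and his-37. In the RefSeq annotation no protein-coding gene separates his-35 from his-41, and 2 lie between his-35 and his-37.

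Levels of his-41 were 89.56, 89.41 and 77.50 RPKM in poly(A) embryos and 22.00, 16.44 and 36.73 RPKM in RiboMinus embryos. Its log2 difference of 1.61 ± 0.31 (adjusted p = 0.0148) was close in size to that of his-35. Levels of his-37 were 91.73, 93.35 and 46.84 RPKM in poly(A) embryos and 36.85, 31.46 and 19.61 RPKM in RiboMinus embryos, and its difference of 1.31 ± 0.39 was not called (adjusted p = 0.0503). Both were higher in every poly(A) library than in any RiboMinus library. How the authors' counting treated reads that match several of these near-identical genes is not given in the sources used here, so levels of core histone genes, his-35, his-71 and his-72 included, are uncertain to that extent.

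**Figure D2:**
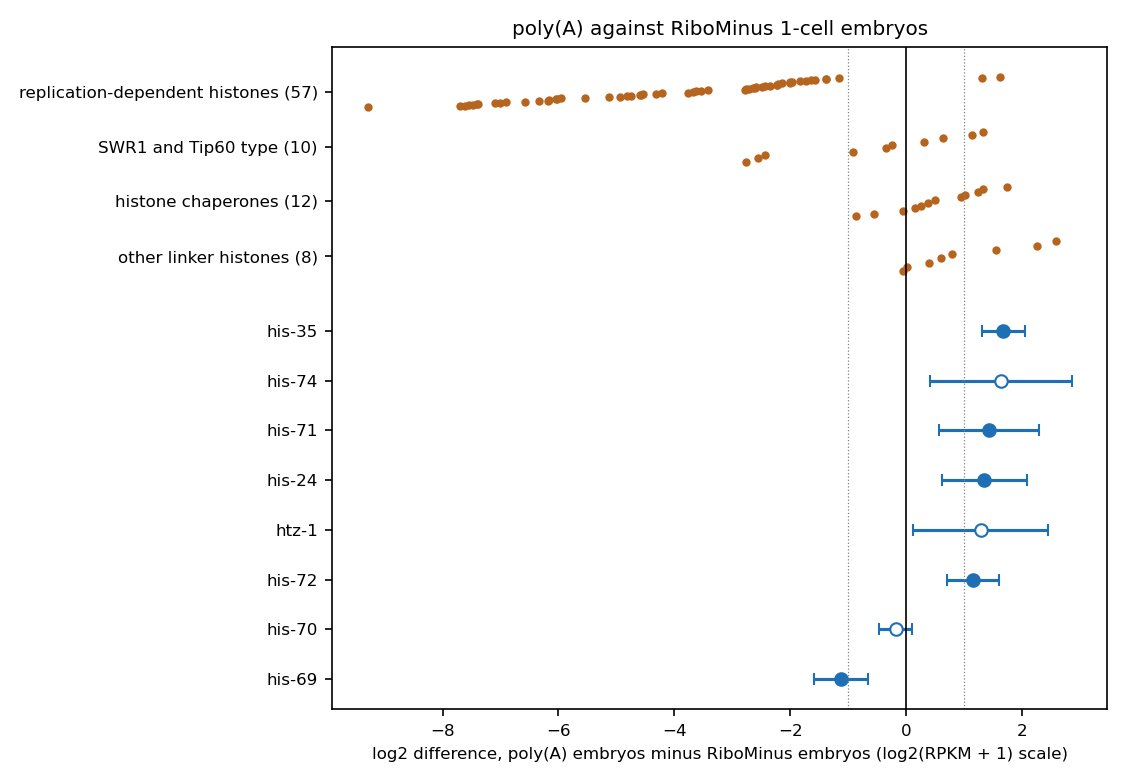
Log2 difference of poly(A) embryos minus RiboMinus embryos, on the log2(RPKM + 1) scale. The lower rows show the 8 histone variants with 95% limma intervals, filled where called, and the upper rows show 1 point per gene of other histone-related lists. Of the 57 replication-dependent histones, 55 lie to the left of -1, whereas 6 of the 8 variants lie to the right of 1. Of those 57 genes, 34 passed the filter through RiboMinus libraries alone.

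Other genes of histone supply and exchange gave mixed results in the same comparison. Of 8 other linker histone genes, 3 were called higher and 0 lower (median 0.70): hil-2, hil-5 and hil-3. The gene hil-2 averaged 167 ± 19.4 RPKM in poly(A) embryos and 28.5 ± 14.1 RPKM in RiboMinus embryos. The gene hil-5 averaged 2052 ± 366 RPKM in poly(A) embryos and 466 ± 275 RPKM in RiboMinus embryos. The gene hil-3 averaged 13.1 ± 5.52 RPKM in poly(A) embryos and 3.66 ± 0.707 RPKM in RiboMinus embryos. Of 12 histone chaperone genes, 4 were called higher and 0 lower (median 0.44), although after quantile normalization 1 was higher and 1 lower. They were asfl-1 (an ASF1 chaperone of H3 and H4) at 1.74, nasp-2 (a NASP-type H3 chaperone) at 1.32, chaf-1 (a subunit of the chromatin assembly factor) at 1.24 and nap-1 (a chaperone of H2A and H2B) at 1.02. Among 10 genes of complexes that exchange or acetylate H2A.Z-containing chromatin, 2 were called higher and 3 lower (median -0.30). The 3 lower ones were ssl-1, the ATPase that exchanges H2A.Z, at -2.77, trr-1 at -2.56 and epc-1 at -2.44, while zhit-1 was at 1.32 and gfl-1 at 1.14. The centromeric H3 genes cpar-1 and hcp-3 were not called, at 0.90 and 0.59. The gene cdl-1, which encodes the stem-loop binding protein of histone mRNAs, averaged 229 ± 157 RPKM in poly(A) embryos and 358 ± 124 RPKM in RiboMinus embryos and was not called (adjusted p = 0.298).

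Embryos were next set against worms of the maternal strain, both poly(A)-selected. His-74, htz-1, his-72 and his-24 were called higher in embryos, none of the 8 genes was lower, and his-35, his-71, his-69 and his-70 were not called. Over all genes 55.3% were called, 30.9% higher and 24.4% lower, so a call in this comparison is common. The embryo values are those given above and are shared with the first comparison.

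The largest difference was that of his-74, with 1840 to 2280 RPKM in poly(A) embryos against 100.1, 97.62 and 97.15 RPKM in maternal-strain worms. The ratio of mean RPKM was 21.1, and the log2 difference was 4.37 ± 0.50 (adjusted p = 0.000425). For htz-1, with 1137 to 2283 RPKM in embryos against 191.8, 193.7 and 191.0 RPKM in the worms, the ratio was 8.92 (log2 difference 3.07 ± 0.48, adjusted p = 0.00160). For his-72, with 1286 to 1524 RPKM in embryos against 349.4, 350.2 and 336.1 RPKM in the worms, the ratio was 4.09 (2.03 ± 0.18, adjusted p = 0.000150). In all 3 genes every embryo library was above every worm library, and these calls held under all 14 alternatives. How many of all genes lie apart in this way was not counted. By rank among 19126 named genes, his-74, htz-1 and his-72 were the 31st, 45th and 59th most abundant mRNAs of poly(A) embryos, and the 923rd, 514th and 307th of maternal-strain worms.

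Linker histone his-24 had 59.79 to 72.58 RPKM in embryos against 21.24, 22.45 and 22.83 RPKM in the worms, with no overlap and a log2 difference of 1.52 ± 0.30 (adjusted p = 0.00462). After quantile normalization it was under the fold limit, at 0.64. For his-35, at 103.7 to 114.1 RPKM in embryos against 52.73, 55.88 and 56.45 RPKM in the worms, the groups did not overlap and the difference of 0.96 ± 0.15 (adjusted p = 0.00172) lay just under the fold limit. It was called without poly(A) replicate 3 (1.02) and with medians centred (1.06), whereas after quantile normalization it was -0.02. For his-71, the embryos had 29.96 to 34.86 RPKM against 21.61, 21.14 and 21.06 RPKM in the worms, and the difference of 0.62 ± 0.35 missed the threshold (adjusted p = 0.172, interval -0.25 to 1.48). No read of his-69 fell in maternal-strain worms at 201.4 M reads, so the 60 reads in poly(A) embryos put it at least 11.4-fold higher there (floor of 3 reads over the group). On the log2(RPKM + 1) scale, which compresses low values, the difference was 0.51 and was not called (adjusted p = 0.0544). No read of his-70 fell in either group.

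Of the gene lists, 6 of 12 chaperone genes were called higher in embryos and 0 lower (median 1.00), led by hmg-4 at 2.76 and nasp-2 at 2.54. After quantile normalization, 3 were higher and 1 lower. Of the 10 H2A.Z exchange and acetylation genes, 4 were higher, with gfl-1 at 3.39 and zhit-1 at 3.18, and 1 lower, ssl-1 at -2.39. The linker histone genes hil-5, hil-4 and hil-2 were higher (3 of 8), as was hcp-3 of the centromeric pair, at 1.90. Of the 57 replication-dependent histones, 12 were called higher and 0 lower, with a median of 0.16 beside 0.05 for all genes. At least 34 of the 57 were below 1 RPKM in every library of both groups.

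CB4856 worms were then set against worms of the maternal strain, which asks what marks the paternal strain. Here 14.9% of genes were called, 13.3% higher and 1.62% lower. Of the 8 genes, his-70 and his-24 were called higher in CB4856 worms, his-72 lower, and 5 were not called.

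The his-70 mRNA was detected in CB4856 worms alone of the replicated groups, apart from the single RiboMinus read. It had 6.425, 6.225 and 6.104 RPKM there, from 85, 82 and 363 reads, and 0 reads in each maternal-strain library. The levels of the CB4856 libraries lay close together. Over the group this was at least 158-fold higher (floor of 3 reads, 0.0391 RPKM). Since his-70 entered the test through the CB4856 libraries alone, its fitted difference of 2.85 ± 0.12 (adjusted p = 4.2e-06) is a description. All 8 sperm chromatin genes, which encode sperm nuclear and phosphatase proteins, were also higher in CB4856 worms, by 1.19 for htas-1 to 6.44 for gsp-3 on the log2(RPKM + 1) scale. They too reached 1 RPKM in 3 libraries through CB4856 worms alone, so these values are a description. Their summed level was 376.0 to 379.2 RPKM in CB4856 worms and 1.602 to 2.680 RPKM in maternal-strain worms, and the sperm marker sums given above differed in the same direction. The part of sperm content in the his-70 difference was not tested.

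For his-24, CB4856 worms had 95.59, 94.14 and 90.37 RPKM against 21.24, 22.45 and 22.83 RPKM in maternal-strain worms. The ratio of mean RPKM was 4.15, with a log2 difference of 2.00 ± 0.30 (adjusted p = 0.00344) that was called under all 14 alternatives. CB4856 worms had the highest his-24 level of the 7 conditions, and all 3 sperm libraries were below it, although above the maternal-strain worms. For his-72, CB4856 worms had 172.0, 169.2 and 162.4 RPKM and maternal-strain worms 349.4, 350.2 and 336.1 RPKM, a ratio of 0.486. The difference of -1.04 ± 0.18 (adjusted p = 0.00716) lay near the fold limit, and it lost its call without any 1 of the 4 samples (adjusted p = 0.0555 to 0.0737) and after quantile normalization (-0.82). The 6 oocyte and early embryo markers summed to 4065 to 4157 RPKM in CB4856 worms and 4882 to 4968 RPKM in maternal-strain worms, with none of the 6 called, and their part in the his-72 difference was not tested.

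The other genes were closer between the strains. For his-71, CB4856 worms had 37.28, 38.52 and 39.29 RPKM, above the 21.06 to 21.61 RPKM of maternal-strain worms, but the difference of 0.83 ± 0.35 was not called (adjusted p = 0.169, interval -0.03 to 1.70). For his-35, CB4856 worms had 67.64, 64.15 and 64.84 RPKM against 52.73 to 56.45 RPKM in maternal-strain worms, a difference of 0.24 (interval -0.13 to 0.60). For htz-1, CB4856 worms had 214.9, 217.8 and 216.3 RPKM against 191.0 to 193.7 RPKM in maternal-strain worms (0.17, interval -0.99 to 1.33). For his-74, CB4856 worms had 100.1, 108.4 and 107.2 RPKM against 97.15 to 100.1 RPKM in maternal-strain worms (0.11, interval -1.12 to 1.33). Among the 8 genes the groups overlapped for his-74 only. Overlap was not counted over all genes, so this is a description. The wide intervals of htz-1 and his-74 arise because the fit pools the spread of the embryo libraries. With medians centred, which moves the median of all genes by -0.21 in this comparison, the differences of htz-1 and his-74 were -0.04 and -0.11. The mRNA of his-69 had 2, 2 and 7 reads in CB4856 worms, and 0 reads fell in maternal-strain worms.

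Of the lists, 0 of 12 chaperone genes and 0 of 10 H2A.Z exchange and acetylation genes were called between the strains (limma). At an unadjusted p under 0.05, 0 chaperone genes and 1 exchange gene (lower) passed, while in a fit of the worm libraries alone 12 chaperone genes and 7 exchange genes passed as lower and 2 exchange genes as higher. That fit passed 78.8% of all genes, 4688 higher and 4008 lower, and all 8 histone variants. The linker histone gene hil-3 was higher in CB4856 worms, at 26.7 ± 0.727 against 9.05 ± 0.655 RPKM (log2 difference 1.46, adjusted p = 0.0128). Among the 57 replication-dependent histones, 0 were higher and 2 lower, his-60 at -2.21 and his-67 at -1.88. At least 34 of the 57 were below 1 RPKM in every worm library, namely those that passed the filter through RiboMinus libraries alone.

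**Figure D3:**
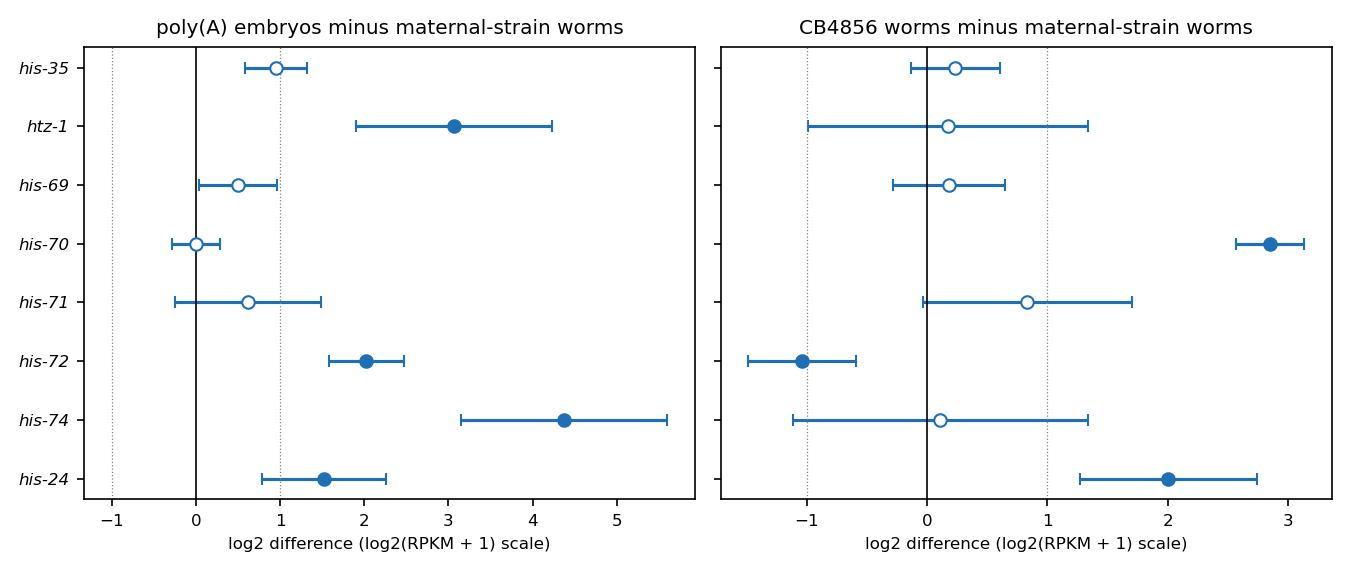
Log2 differences of the 8 histone variants on the log2(RPKM + 1) scale, with 95% limma intervals and filled points where called. The left panel shows poly(A) embryos minus maternal-strain worms, where his-74 is at 4.37, and the right panel shows CB4856 worms minus maternal-strain worms, where his-70 is at 2.85 and his-72 at -1.04.

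In sperm, his-70 was the most abundant of the 8 genes in 2 of the 3 libraries. It stood at 338.0 RPKM in high-purity CB4856 sperm, 131.1 RPKM in low-purity CB4856 sperm and 141.8 RPKM in fog-2 sperm. There is 1 library each, their depth is unknown, and unlike those of the other libraries their values are not whole multiples of a read, so levels across these tables are set side by side with no test. The high-purity level of his-70 was 54.4 times that of CB4856 worms and 2.58 times that of low-purity sperm, the largest ratios of the 8 genes. Its rank among 19126 named genes was 461 in high-purity sperm and 6510 in CB4856 worms.

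In low-purity sperm htz-1 was the most abundant. His-74 was next to his-70 in the other libraries, at 279.1, 134.2 and 135.4 RPKM in high-purity, low-purity and fog-2 sperm. The corresponding levels were 179.0, 148.7 and 103.1 RPKM for htz-1 and 127.3, 80.35 and 99.23 RPKM for his-72. These 3 mRNAs, the most abundant variants of the embryo, were present in all sperm libraries, at a far lower level than in poly(A) embryos. The oocyte and early embryo markers summed to 983.9 to 1338 RPKM in the same libraries and to 13810 to 14630 RPKM in poly(A) embryos, and their part in these levels was not tested. The levels of his-35 were 112.5, 69.38 and 87.87 RPKM, the first within the range of poly(A) embryos. Those of his-24 were 65.04, 52.67 and 24.52 RPKM and those of his-71 46.37, 32.93 and 27.92 RPKM. The neighbour of his-70, his-69, remained low, at 4.511, 1.960 and 2.264 RPKM. All 8 genes were higher at high than at low purity, from 1.20 times for htz-1 to 2.58 times for his-70, and sperm markers summed to 21290 RPKM at high purity and 6863 RPKM at low purity. The part of purity in these ratios was not tested.

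The make-up of H3.3-type mRNA differed by condition. Of the summed RPKM of his-69, his-70, his-71, his-72 and his-74, his-74 held 54.20%, 54.42% and 63.32% in poly(A) embryos, and his-72 held 44.81%, 44.69% and 35.71%. In RiboMinus embryos, his-74 held 38.07%, 41.16% and 61.93%, and his-72 61.02%, 57.49% and 37.06%. Replicate 3 had more his-74 and less his-72 than the other libraries in both embryo groups, and the ranges of the 2 groups overlapped. In CB4856 worms his-72 held 51.54% to 54.44% and his-71 11.80% to 12.47%, whereas in maternal-strain worms his-72 held 73.98% to 74.68% and his-71 4.51% to 4.64%. The worm groups did not overlap for either gene. His-70 held 42.50% in high-purity CB4856 sperm, 34.45% in low-purity sperm and 34.88% in fog-2 sperm, 1.93% to 2.03% in CB4856 worms, and 0% in poly(A) embryos and in maternal-strain worms. The share of his-69 did not pass 0.57% in any library.

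**Figure D4:**
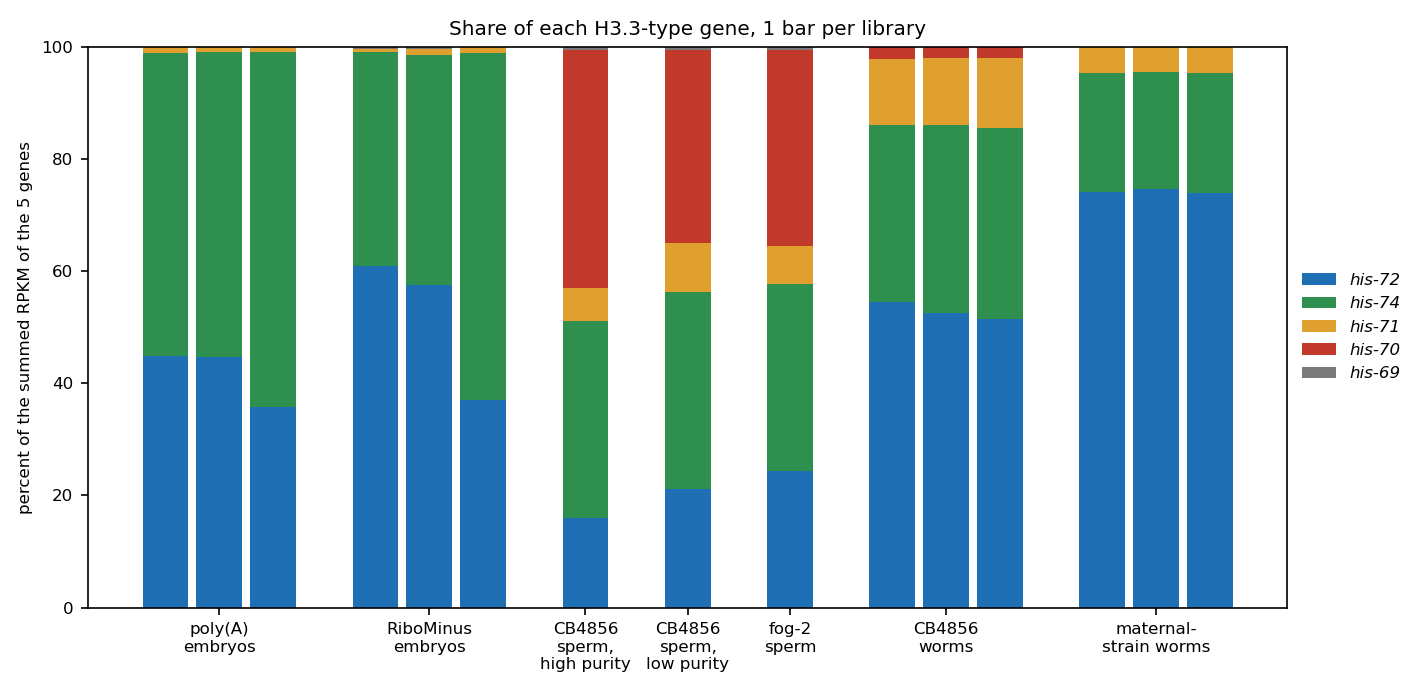
Percent of the summed RPKM of 5 H3.3-type genes held by each gene, with 1 stacked bar per library and libraries grouped by condition. The his-70 share is 34.45% to 42.50% in sperm, and his-72 and his-74 together fill nearly the whole bar in embryos.

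The order of the 4 replicated groups by level varied among the genes. For his-35, poly(A) embryos were highest, followed by CB4856 worms, maternal-strain worms and RiboMinus embryos, with no overlap between neighbours in the order. The genes htz-1 and his-74 had the order poly(A) embryos, RiboMinus embryos, CB4856 worms, maternal-strain worms, and the libraries of the worm groups overlapped for his-74 alone. For his-72 maternal-strain worms came before CB4856 worms. For his-71 and his-24 CB4856 worms were highest and poly(A) embryos second, and for his-24 the RiboMinus and maternal-strain libraries overlapped. Orders and overlaps were not counted over all genes and are a description.

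Genes with the most similar pattern were sought over the 7 conditions (4 group means and 3 sperm libraries, each library or group shared by all genes) by Pearson's r of log2(RPKM + 1), among 10376 genes that reached 10 RPKM in a condition. For his-70 they were F32B4.2, Y116F11A.3 and F38H4.6, each at r = 1.00, and all 3 were at 0.06 RPKM or less in poly(A) embryos. For his-74 they were T21C9.4, RIT5P.218 and T28C6.3 (each 1.00), for htz-1 F23H12.2 (1.00), Y51H7C.7 and W06D11.3 (both 0.99), and for his-72 W02B12.10, pas-2 and pas-7 (each 0.99). For his-35 they were Y40B1B.5 (0.97), F42F12.4 (0.96) and F42G9.4 (0.95), and for his-71 nduf-7 (0.97), K01H12.1 (0.93) and Y39G10AR.10 (0.92). The closest to his-24 were hmg-11 (0.92), col-165 (0.91) and nft-1 (0.88). With this many genes and 7 conditions, high values are found for most patterns, and they are given as a description only.

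Small RNA libraries showed a different ranking, in which his-24 stood far above the other variants. C. elegans makes short antisense RNAs, the 22G class among them, from mRNA templates with RNA-dependent RNA polymerases, and Argonaute proteins carry them in the germline. The libraries were made after polyphosphatase treatment, which allows such RNAs to be cloned. There was 1 library each of hybrid embryos, of TX189(OMA-1::GFP) embryos, of fog-2(q71) sperm and of N2 oocytes, with 3.508, 15.676, 7.861 and 8.808 M antisense reads on exons in this order, and no test was possible. Values are antisense reads per kilobase of gene per M antisense exon reads of the library.

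His-24 had 3476 in hybrid embryos, 9394 in TX189 embryos, 7946 in fog-2 sperm and 2582 in oocytes. These came from 11547, 139448, 59148 and 21539 antisense reads, against 314, 24, 0 and 7 sense reads. Among 17411 genes with a length, it ranked 33rd, 3rd, 7th and 32nd. The next histone variant was his-35 in hybrid embryos at 179.0 and in oocytes at 211.4, his-74 in TX189 embryos at 262.6 and his-70 in fog-2 sperm at 142.6. His-24 was 19.4, 35.8, 55.7 and 12.2 times above the next variant in hybrid embryos, TX189 embryos, fog-2 sperm and oocytes. The level of his-24 mRNA itself was moderate in these data.

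For his-70, antisense values were 6.735 in hybrid embryos, 75.01 in TX189 embryos, 142.6 in fog-2 sperm and 9.834 in oocytes, from 9, 448, 427 and 33 reads. Sperm was highest, as for the his-70 mRNA, and the embryo libraries differed widely from each other. For his-74 the values were 69.19, 262.6, 64.81 and 39.67, for his-72 31.16, 91.94, 29.20 and 20.78, and for htz-1 22.66, 47.18, 39.04 and 15.66, in the same order. These 3 genes were highest in TX189 embryos, and his-35 was highest in oocytes and hybrid embryos, at 50.13 in TX189 embryos and 31.17 in sperm. Antisense reads of his-71 were few, 7, 31, 1 and 46, and those of his-69 were 0, 0, 1 and 3, near the limit of 3 reads.

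Sense reads outnumbered antisense reads for htz-1, his-72 and his-71 in hybrid embryos. The antisense share there was 29.3% for htz-1 (72 antisense and 174 sense reads), 36.0% for his-72 (80 antisense reads) and 46.7% for his-71 (7 antisense and 8 sense reads). In the other 3 libraries antisense reads made up 80.24% to 98.23% of the reads on htz-1 and 85.08% to 94.38% of those on his-72. Over all exons, too, hybrid embryos had the most sense reads for their antisense reads, 0.349 M beside 3.508 M. The sense and antisense totals were 0.787 and 15.676 M in TX189 embryos, 0.348 and 7.861 M in sperm and 0.218 and 8.808 M in oocytes. The part of the library in the sense reads of these genes was not tested. Of 60 replication-dependent histone genes with a length, 21 had an antisense read in hybrid embryos, 32 in TX189 embryos, 17 in sperm and 19 in oocytes. Among all 21777 features of the small RNA data, 15357, 16420, 15026 and 16513 had an antisense read, in the same order. Small RNA values of whole worms were not used here.

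**Figure D5:**
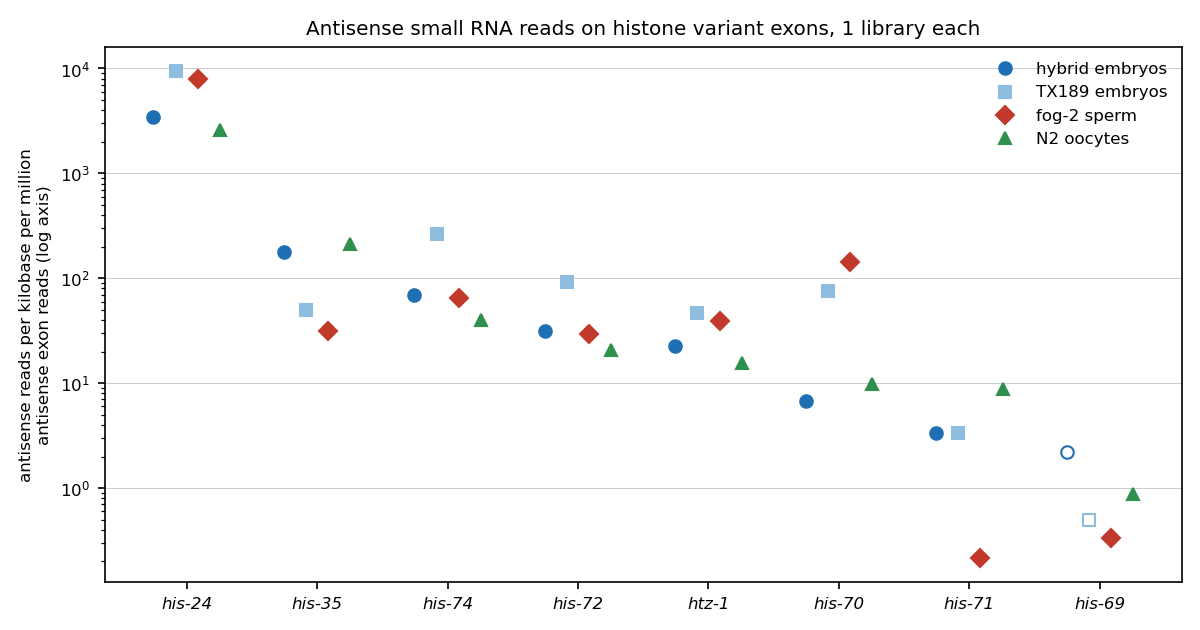
Antisense small RNA reads per kilobase per M antisense exon reads on the 8 histone variants, on a log axis, with 1 point per library and no replicates. Open symbols mark 0 reads and stand at the limit of 3 reads. The his-24 points, 2582 to 9394, lie above all others.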

How the data were processed

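Levels of mRNA are the authors' deposited RPKM, with missing entries read as 0. Reads were aligned with BWA, version not stated, per the submitters' processing notes. In the deposited small RNA exon table each library's signal moves in steps of a single size. It was divided by that step, with 88.86% to 92.73% of antisense values then whole (within 0.001 of a read). In that table, 12 columns matched no sample by name and were not used. RPKM steps gave back whole reads for 99.97% of 16872 features with a value in at least 4 libraries, which gave depth and gene lengths. On simulated data 99.8% of 16566 features were right.

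Limma 3.58.1 (R 4.3.3) with a trend was fitted to log2(RPKM + 1) of 4 groups in 1 fit, n = 2 samples a group, over the 11041 named genes that reached 1 RPKM in 3 or more of 12 libraries. P-values are two-sided with Benjamini-Hochberg adjustment. The labels do not say which libraries came from separate cultures, so p-values cover only the spread between these samples. On simulated data with 2 samples a group, poly(A) against RiboMinus embryos, 10726 genes, recovered 0% of 2-fold and 31% of 4-fold changes, with 0 false calls among 10526 unchanged genes. For poly(A) embryos against maternal-strain worms, 10592 genes, it was 0% and 34%, and for CB4856 against maternal-strain worms, 10545 genes, 6% and 49%. The simulated deviations of the 2 samples cancelled in the group mean, so the false calls do not measure an error rate. A 2-fold change lies under the fold limit on the log2(RPKM + 1) scale, so its low recovery was set by that limit. Limits for 0 reads (3 reads) cover counting error only. The text names all members, up to 4 called genes of each list by size of difference, and the 3 genes most like each member. The members and lists were chosen with earlier results of these data known. Of the chaperone list, hira-1 and unc-85 are not analysed here. Alternatives are in the closing section. Python 3.11.15 and pandas 2.3.3 were used.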

Additional observations from a re-analysis of the deposited data

How the results depend on the processing

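Over 14 alternatives (13 for his-69), the 8 genes kept their direction and call in 89 of 111 cases for poly(A) against RiboMinus embryos, 104 of 111 for poly(A) embryos against worms of the maternal strain, and 101 of 111 for the 2 worm strains. The first comparison had 5 called genes, 0 in the fit of the 2 groups only, and 1 to 7 with a sample left out: 1 (his-35) without RiboMinus replicates 1 and 2, and 7 without RiboMinus replicate 3. Over all genes, 1328 were higher and 950 lower, against 0 and 0 in the fit of the 2 groups only, with 968 to 1722 higher and 660 to 1628 lower with a sample left out (1628 without poly(A) replicate 3). In the second, 4 genes were called (4 to 5 with a sample left out), beside 2845 to 3644 higher and 2474 to 3030 lower over all genes, against 3412 and 2692, and a pseudocount of 5 gave 1382 lower. In the third, 3 genes were called (2 with a sample left out). Over all genes 1463 were higher and 179 lower, against 587 and 84 with a pseudocount of 5, 713 and 118 with a minimum of 5 RPKM, 921 and 577 after quantile normalization, and 1304 to 1348 and 141 to 149 with a sample left out. The cause was not tested, except that the stricter minimum tests fewer genes and a higher pseudocount compresses low values.

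Sign changes occurred only among genes without a call: after quantile normalization his-35 (-0.0175) and his-71 (-0.10) against maternal-strain worms, and between the strains his-69 (-0.00409) after quantile normalization, and his-69 (-0.0325), his-74 (-0.11) and htz-1 (-0.0411) with medians centred. Centring moved the all-gene median by 0.15, 0.10 and -0.21 in the 3 comparisons. With a pseudocount of 0.1, his-69 was called higher than in maternal-strain worms in poly(A) embryos (2.37) and in CB4856 worms (1.22).

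With the replicate block (replicates 1 and 2 against 3), no call of the 8 genes changed, and 5, 4 and 3 were called; the adjusted p of his-74 against RiboMinus embryos was 0.0506 and that of his-71 0.0330. The deviations of samples with the same number correlated, over 11041 genes, at 0.24, 0.09 and 0.73 in the 3 comparisons. In the 2 worm strains replicate 3 thus tended to depart in the same direction. Each correlation rests on 2 samples a group, and the main fit does not pair the samples. With all 3 libraries of a group as samples (n = 3), his-74 and htz-1 were also called in poly(A) embryos. The lowest Pearson's r of a gene named for its similar pattern was 0.88, and the lowest Spearman's rho 0.79. The planned share of H3.3-type genes without his-73 was not run, since that gene is not analysed here. With 5 to 8 reads a library, depth limits his-69 in RiboMinus embryos.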
